A study of Mus musculus with 12 samples.

Results

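Small nucleolar RNA (snoRNA) host gene transcripts were followed through B-cell activation and plasmablast differentiation in mice. The 8 transcripts were Snhg1, Snhg3, Snhg4, Snhg5, Snhg6, Snhg8, Snhg12 and Gas5, found by their Entrez identifiers among the 27179 genes of the count table. They were chosen by their measured levels in these libraries, for a rise between 3 and 10 h of activation and a fall from expanded B cells to plasmablasts. Changes of the members across those 2 transitions are therefore given as descriptions, with no test. RNA-seq covered 12 libraries of polyA RNA from splenic B cells of young adult male C57BL/6 mice, with 2 biological replicates for each of 6 stages. Naive B cells were untreated. B cells activated with 25 μg/ml lipopolysaccharide (LPS) from Salmonella typhosa, which were CD69+ and still undivided by dye content, were sorted at 3, 10 and 33 h. On day 4 of culture with the same dose of LPS, CD22+CD138- cells were sorted as expanded B cells, and those that were CD22-CD138+ as plasmablasts. Per the study's methods, the day 4 cultures were set up at a lower cell density than those sorted earlier. Naive cells were sorted from spleen without culture. Effects of density or culture cannot be told apart from those of stage. All stages shared the same strain, and no transgene or deletion is given for them. How many mice went into a replicate is not given in the sources used here.

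snoRNAs are short stable RNAs of the nucleolus that guide chemical changes on ribosomal RNA. Box C/D snoRNAs guide methylation and box H/ACA snoRNAs guide the conversion of uridine to pseudouridine. In mammals most of them are cut from introns, either of protein-coding genes for ribosomal and nucleolar proteins or of noncoding hosts such as those studied here. The spliced exons of a noncoding host leave the nucleus, and those of Gas5 and Snhg1 are known to be bound by ribosomes and removed by nonsense-mediated decay. Many host genes start transcription at a pyrimidine tract (a terminal oligopyrimidine or TOP motif), which links their RNA to growth signalling and to translation. PolyA RNA-seq counts the spliced exons, so the level of a host transcript is not the level of its snoRNAs, and in bulk libraries fewer cells of a type and less RNA per cell cannot be told apart.

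The host genes are shown first by the 100 bases around their annotated start, because these hold the sequence that host genes are known for. RefSeq entries for GRCm38.p6 were found for 6 of the 8 members, with 7 starts in all. Each line runs 5′ to 3′ on the strand of the gene, with 50 bases before and 50 bases from the start. Capitals mark TATAAA or TATATA lying 45 to 16 bases before the start, and the longest run of C and T within 10 bases before to 20 bases after it.
Gas5, first start (chr1:161034551-161034650, plus strand): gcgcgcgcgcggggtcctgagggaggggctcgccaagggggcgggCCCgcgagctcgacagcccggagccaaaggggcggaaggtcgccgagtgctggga
Gas5, second start (chr1:161035116-161035215, plus strand): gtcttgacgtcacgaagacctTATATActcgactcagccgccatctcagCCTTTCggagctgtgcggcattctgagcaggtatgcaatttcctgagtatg
Snhg8 (chr3:123508287-123508386, minus strand): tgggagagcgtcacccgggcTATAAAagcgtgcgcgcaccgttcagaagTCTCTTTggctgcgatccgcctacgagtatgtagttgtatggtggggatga
Snhg12 (chr4:132308628-132308727, plus strand): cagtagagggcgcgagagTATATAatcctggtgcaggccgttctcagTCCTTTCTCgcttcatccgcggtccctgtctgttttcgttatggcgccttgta
Snhg3 (chr4:132353637-132353736, minus strand): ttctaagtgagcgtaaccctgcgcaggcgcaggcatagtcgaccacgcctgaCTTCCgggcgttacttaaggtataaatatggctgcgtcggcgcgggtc
Snhg5 (chr9:88522848-88522947, minus strand): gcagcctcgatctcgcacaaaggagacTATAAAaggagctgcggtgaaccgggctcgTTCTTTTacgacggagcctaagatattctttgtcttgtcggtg
Snhg1 (chr19:8723437-8723536, plus strand): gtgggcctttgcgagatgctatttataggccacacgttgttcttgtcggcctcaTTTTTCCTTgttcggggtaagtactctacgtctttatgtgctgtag

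A run of at least 5 pyrimidines stood near the start in 6 of the 7 entries, against 46.4% of the 32851 promoter entries of the table. With the annotated start as position 1, the run began at -1 for the second Gas5 start and Snhg8 and at -3 for Snhg12. In Snhg3, Snhg1 and Snhg5 it began after the annotated start, at positions 3, 5 and 8. The median length of the longest run was 7 bases in the members and 4 in all entries. Runs of 9 bases were present in Snhg1 and Snhg12. TATAAA or TATATA on the sense strand lay within the window in 4 entries, those of Snhg5, Snhg8, Snhg12 and the second start of Gas5, against 2.96% of all entries. Snhg3 held TATAAA on the sense strand after its start. Snhg1 held it on the other strand, read as TTTATA in the printed line, within the same window before its start. On either strand of the whole entry, from 250 bases before to 50 after the start, TATAAA was present in 13.6% and TATATA in 5.67% of all entries, and the 2 motifs can overlap. CACGTG, the palindromic E box bound by Myc family factors, was in none of the 7 entries and in 7.15% of all entries. The motifs were chosen after the sequences had been seen, and these matches describe letters only.

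The snoRNAs inside the hosts are shown by 4 of the 7 for which the polyA libraries held at least 10 counts in a library. In these 4, every box searched for was found. Among those not printed, Snord22 showed a D box but no TGATGA, and Snora44 no ACA box at the place searched. The letters are those of GENCODE M21 transcripts of GRCm38, and capitals mark the C box (TGATGA), the D box (CTGA) or the ACA box found in them. The counted rows of Snord47 and Snord87 are 65 and 74 bases, shorter than the 77 and 87 letters printed.
Snord47, box C/D, in Gas5 (counted row chr1:161038092-161038156): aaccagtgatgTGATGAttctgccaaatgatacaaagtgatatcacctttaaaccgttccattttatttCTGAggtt
Snord87, box C/D, in Snhg6 (counted row chr1:9942470-9942543): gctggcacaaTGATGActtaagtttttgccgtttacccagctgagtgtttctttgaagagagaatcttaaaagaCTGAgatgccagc
Snora73a, box H/ACA, in Snhg3 (counted row chr4:132352775-132352979): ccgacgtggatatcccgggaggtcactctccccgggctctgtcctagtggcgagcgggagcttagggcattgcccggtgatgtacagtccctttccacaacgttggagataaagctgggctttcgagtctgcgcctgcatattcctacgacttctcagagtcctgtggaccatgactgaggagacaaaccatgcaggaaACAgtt
Snora16a, box H/ACA, in Snhg12 (counted row chr4:132309465-132309600): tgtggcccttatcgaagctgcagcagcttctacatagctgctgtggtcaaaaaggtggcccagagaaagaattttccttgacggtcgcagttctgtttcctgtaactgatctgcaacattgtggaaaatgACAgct

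All 8 members are annotated as long noncoding RNAs on mm10. Gas5 (Entrez 14455, chr1:161034601-161038539) and Snhg1 (83673, chr19:8723487-8726326) each enclose 8 annotated snoRNAs. Snhg12 (100039864, chr4:132308678-132311024) encloses 4, while Snhg3 (399101, chr4:132351933-132353686) and Snhg5 (72655, chr9:88521052-88522897) enclose 2 each. Snhg4 (100503380, chr18:35553410-35558316), Snhg6 (73824, chr1:9942025-9944118) and Snhg8 (69895, chr3:123507552-123508336) enclose 1 each. Counts were taken over exons, of 407 bases in Snhg6 to 2554 bases in Gas5. The counted exon of Snhg8 is its whole span of 785 bases, with Snora24 inside it.

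Total counts ran from 23026619 to 60585587 per library, and all 8 members were among the 12750 genes that passed the filter on low counts. Summed CPM (counts scaled to library size, here with TMM scaling) of the B-cell markers Cd79a, Cd79b, Ms4a1 and Pax5 ran from 2452 to 8356, and none of these 4 markers was under 1 CPM in both libraries of a stage. The naive markers Ighd, Fcer2a and Cr2 summed to 5452 and 5646 CPM in naive cells against 61.4 and 70.4 CPM in plasmablasts. Those of plasmablasts (Sdc1, Prdm1, Xbp1, Jchain and Irf4) went from 440.1 and 419 CPM in naive cells to 23105 and 22849 CPM in plasmablasts. The course between was not steady, with 3446 and 2607 CPM at 3 h, 805 and 789 at 10 h and 2296 and 2675 in expanded cells. The activation markers Cd69, Cd86 and Myc summed to 166 and 157 CPM in naive cells and 2736 and 2415 at 3 h. On day 4 their sums were 143 and 148 CPM (expanded) and 115 and 163 CPM (plasmablast). T-cell markers summed to at most 3.99 CPM in any library. Myeloid markers (7 with a row) summed to 311 and 140 CPM and erythroid markers (4 with a row) to 216 and 164 CPM in the naive libraries, against at most 39.3 and 1.72 CPM elsewhere, and their part in comparisons with naive cells was not tested.

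Levels are given as RPKM (reads scaled to the length of the counted exons and to the TMM-scaled library size), first for replicate 1 and then for replicate 2. Gas5, named for its accumulation in growth-arrested cells, had 34.5 and 34.4 RPKM in naive cells, then 30.3 and 19.8 (3 h), 31.0 and 43.5 (10 h) and 21.1 and 16.6 (33 h) after activation, with 30.2 and 28.4 (expanded) against 12.1 and 11.8 (plasmablast) on day 4. Its naive level was thus within the 10 h range and above every library of the other stages. Plasmablasts were the lowest stage, without overlap with the next lowest, 33 h. Snhg1, a host of several box C/D snoRNAs, had 16.2 and 13.9 RPKM in naive cells, then 38.1 and 19.2 (3 h), 30.4 and 42.4 (10 h) and 18.9 and 15.6 (33 h) after activation, with 28.5 and 28.7 (expanded) against 12.4 and 9.78 (plasmablast) on day 4. The replicates at 3 h lay so far apart that they enclosed the means of 10 h and expanded cells. Snhg1 in plasmablasts lay below naive cells without overlap.

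Snhg4 and Snhg5 both had their highest level at 10 h and their lowest in plasmablasts, with ratios of peak to lowest mean of 6.83 and 4.43. Snhg4, host of Snora74a, had 3.18 and 4.55 RPKM in naive cells, then 5.42 and 4.08 (3 h), 9.14 and 9.07 (10 h) and 6.64 and 5.18 (33 h) after activation, with 5.50 and 5.24 (expanded) against 1.10 and 1.56 (plasmablast) on day 4. Both 10 h libraries were above all others, and both plasmablast libraries below. Snhg5, a host of 2 snoRNAs with no rows in the table, had 3.65 and 4.03 RPKM in naive cells, then 9.37 and 6.30 (3 h), 9.64 and 9.91 (10 h) and 5.37 and 5.62 (33 h) after activation, with 6.31 and 7.90 (expanded) against 2.01 and 2.41 (plasmablast) on day 4. Its order of means was 10 h, 3 h, expanded, 33 h, naive and plasmablast, in which only 3 h and expanded cells overlapped as neighbours.

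Snhg12 and Snhg8 changed little until 10 h. Snhg12, host of 3 box H/ACA snoRNAs and Snord99, had 8.48 and 7.36 RPKM in naive cells, then 9.84 and 6.94 (3 h), 7.48 and 9.34 (10 h) and 3.07 and 3.11 (33 h) after activation, with 4.25 and 5.30 (expanded) against 1.61 and 1.05 (plasmablast) on day 4. The first 3 stages overlapped, and every library from 33 h on was below all of theirs. Snhg8, host of Snora24, had 25.5 and 24.1 RPKM in naive cells, then 26.8 and 19.4 (3 h), 22.8 and 30.2 (10 h) and 22.6 and 20.1 (33 h) after activation, with 24.6 and 24.8 (expanded) against 14.8 and 16.9 (plasmablast) on day 4. Its 5 stages before the plasmablast overlapped in sequence, and its peak was 1.67 times its lowest stage, the smallest ratio of the 8.

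Snhg6 followed another course. This host of Snord87 had 16.7 and 15.1 RPKM in naive cells, then 20.1 and 18.6 (3 h), 49.9 and 48.4 (10 h) and 41.4 and 55 (33 h) after activation, with 72.8 and 74.5 (expanded) against 34.4 and 38.4 (plasmablast) on day 4. Its lowest stage was naive and its highest the expanded stage, and only 10 h and 33 h overlapped as neighbours in the order of means. Snhg3, host of the box H/ACA snoRNAs Snora73a and Snora73b, was the least abundant member, with 2 to 22 counts per library. It had 0.946 and 0.710 RPKM in naive cells, then 0.255 and 0.676 (3 h), 1.05 and 0.908 (10 h) and 0.552 and 1.24 (33 h) after activation, with 0.974 and 0.893 (expanded) against 0.388 and 0.404 (plasmablast) on day 4. Apart from naive against 3 h, all neighbouring stages in its order overlapped.

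**Figure D1:**
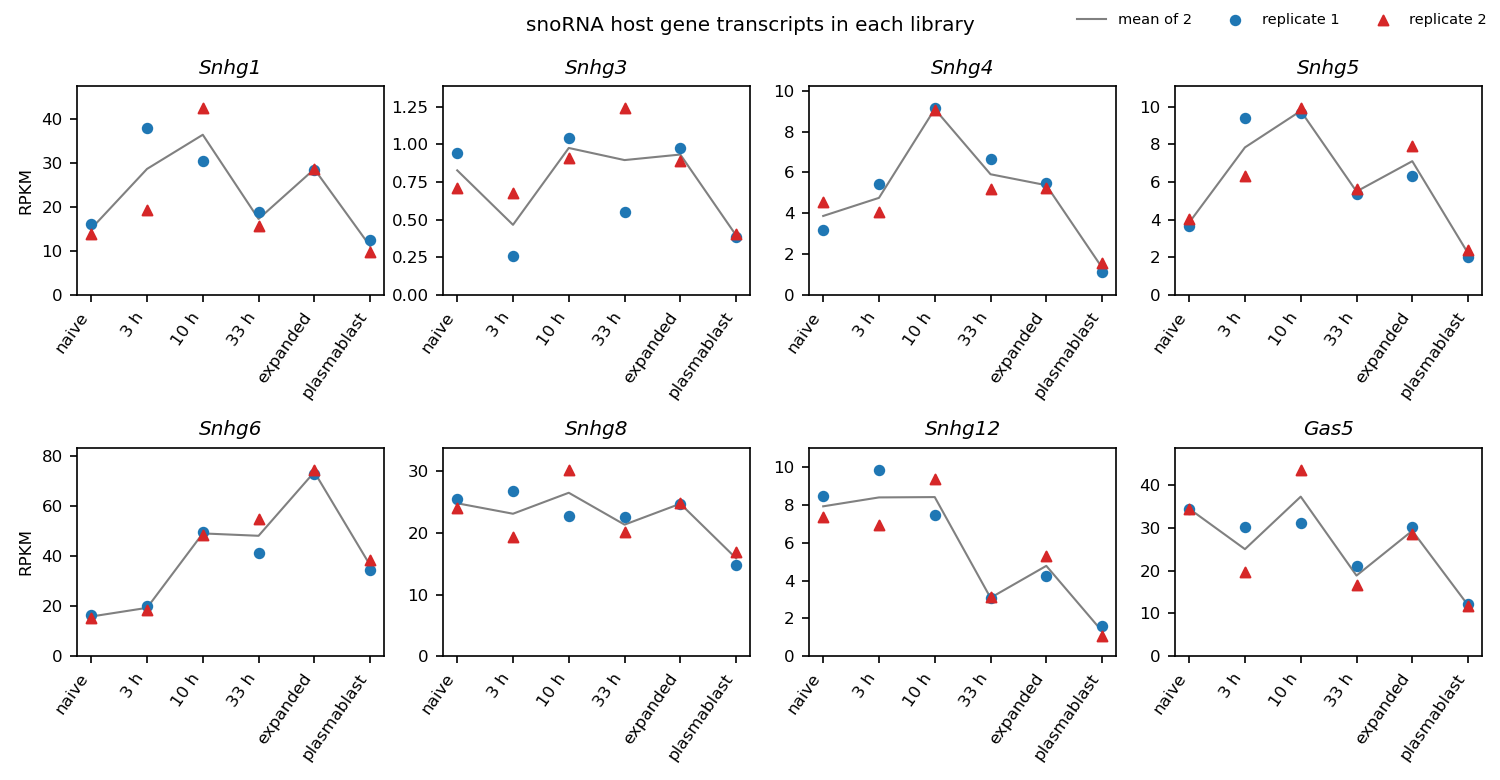
RPKM (linear axes from 0) of the 8 host transcripts by stage, with a circle for replicate 1, a triangle for replicate 2 and a line through the mean of the 2. Of the 8, 7 had their highest mean at 10 h and their lowest in plasmablasts, while Snhg6 was highest in expanded cells at 73.7 and lowest in naive cells at 15.9 RPKM.

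Together the members took 120 and 115 CPM of all counts in naive cells. Activated cells gave 114 and 78.7 (3 h), 158 and 202 (10 h) and 108 and 98.7 (33 h), and day 4 gave 148 and 146 (expanded) against 49.0 and 49.3 (plasmablast). These CPM have no TMM scaling. Their composition shifted as well. Gas5 supplied 65.0% and 65.8% of member counts in naive cells and 46.2% and 43.7% in plasmablasts, while Snhg6 rose from 5.01% and 4.61% to 20.9% and 22.8%. Relative to other genes, the mean RPKM of Gas5 moved from the percentile 82.6 of tested genes in naive cells to 58.9 in plasmablasts, and that of Snhg6 from 65.8 to 81.4.

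The rise from 3 to 10 h, which chose the members, had a median log2 fold change of 0.47, with single values from 0.02 for Snhg12 to 1.35 for Snhg6. The fitted values were above 0 for all 8, which the choice of members fixes. Both 10 h libraries exceeded both 3 h libraries in 5 members (Snhg3, Snhg4, Snhg5, Snhg6 and Gas5), and such separation was seen upward in 40.8% and downward in 37.6% of the 12750 genes tested. The largest were Snhg6 (1.35, SE 0.15), Snhg4 (0.96, SE 0.21) and Snhg3 (0.93, SE 0.55). The stages overlapped in the other 3, Snhg12 (0.02, SE 0.22), Snhg8 (0.21, SE 0.17) and Snhg1 (0.37, SE 0.26). The 3 h libraries differed from each other, since 7 of the 8 members were higher in replicate 1 against 48.4% of tested genes. Without 3 h replicate 1 the median was 0.77, and without 3 h replicate 2 it was 0.19, when Snhg1 (-0.05), Snhg8 (-0.0078) and Snhg12 (-0.22) no longer had values above 0.

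The fall from expanded cells to plasmablasts, also used to choose the members, had a median of -1.34, and every member separated downward, as did 43.9% of the genes tested, with 39.3% separating upward. Snhg4 fell by 1.99 (SE 0.25), Snhg12 by 1.86 (SE 0.29) and Snhg5 by 1.67 (SE 0.22) on the log2 scale. Snhg1 (-1.37, SE 0.28), Gas5 (-1.30, SE 0.20) and Snhg3 (-1.22, SE 0.59) were near the median. Snhg6 (-1.02, SE 0.14) and Snhg8 (-0.64, SE 0.17) were the least changed. Leaving out any 1 of the 12 libraries kept each of these values below 0.

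The other transitions were tested with glmTreat, edgeR's test against a fold change of 1.5, at a Benjamini-Hochberg adjusted p of 0.05 over the 12750 genes. A gene past it is called. With 2 libraries a stage, an exact permutation test of a single gene could not go below 0.333, so all p-values rest on the fit across genes. Tests of 3 h against naive cells, of 33 h against 10 h, of expanded cells against 33 h and of plasmablasts against naive cells each share 2 libraries with the transitions that chose the members. In these tests the choice of members favours a rise for expanded cells and a fall for the others. The shares of all tested genes are then no neutral background for the members. The test of 33 h against naive cells shares none of those libraries, although all tests use a common estimate of the spread.

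**Figure D2:**
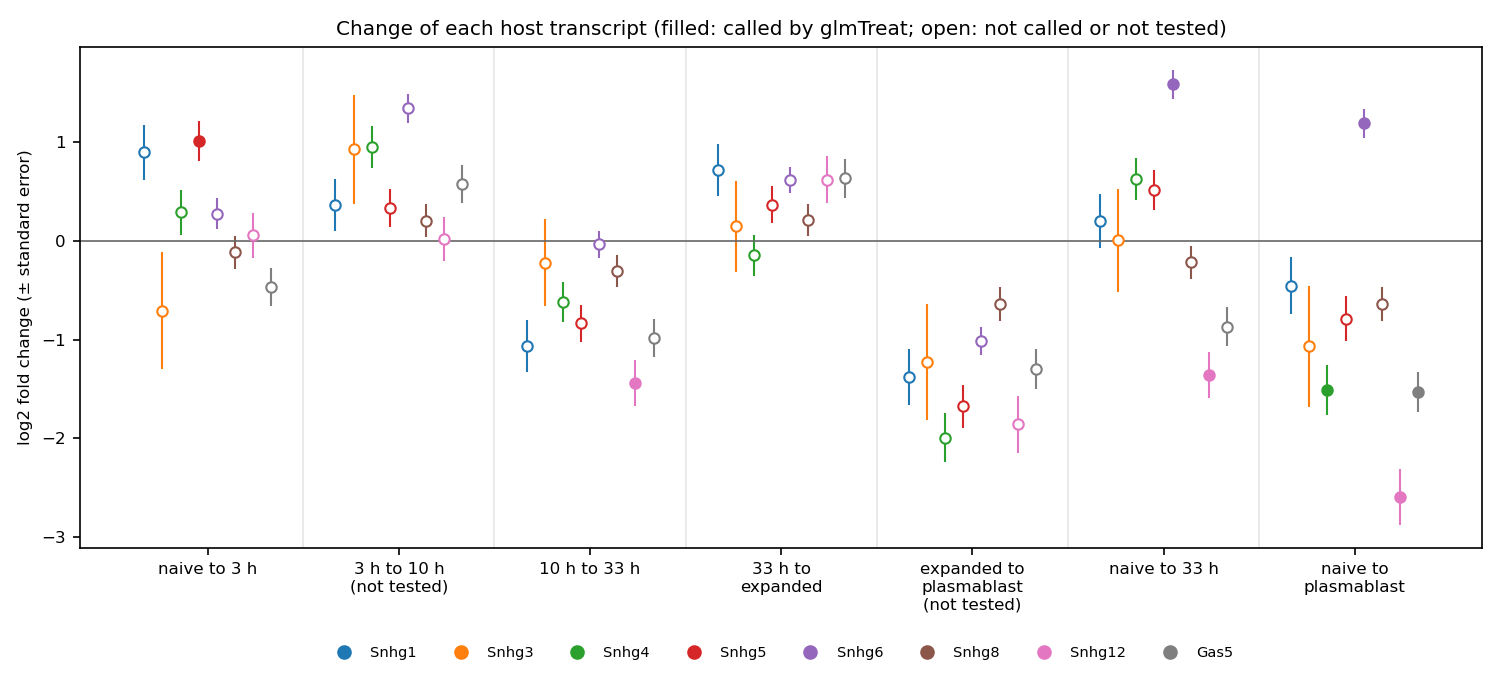
Fitted log2 fold change (± standard error) of each host transcript in 7 comparisons of stages, all 12 libraries in the fit, with filled points for glmTreat calls and open points for values not called or, in the comparisons marked so, not tested. Snhg6 was called up and Snhg12 down from naive cells to 33 h and to plasmablasts, and no member was called from 33 h to expanded cells.

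Between naive cells and 33 h, 1 member was called up and 1 down, against 22.3% of tested genes up and 20.8% down. Snhg6 rose from a mean of 15.9 to 48.2 RPKM (log2 fold change 1.59, SE 0.15, adjusted p = 1.01e-05 by glmTreat). Snhg12 fell from 7.92 to 3.09 RPKM (-1.36, SE 0.24, adjusted p = 0.00229). Gas5 went from 34.5 to 18.9 RPKM without overlap (-0.87, SE 0.19) but missed the threshold (adjusted p = 0.0603 by glmTreat). It passed in 11 of the alternatives, with adjusted p between 0.0131 and 0.0479. Snhg4 (0.63, SE 0.21) and Snhg5 (0.52, SE 0.20) lay above naive cells in both libraries and were not called. Snhg1 (0.20, SE 0.27), Snhg8 (-0.22, SE 0.16) and Snhg3 (0.01, SE 0.52) were also not called. The quasi-likelihood F-test, which has no fold threshold, called 3 members up (Snhg4, Snhg5 and Snhg6) and 2 down (Snhg12 and Gas5), against 35.8% and 35.1% of tested genes. By library, 3 members separated upward and 3 downward, against 43.7% and 43.3% of tested genes. The median of the members was 0.10 and that of all tested genes 0.

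In the first 3 h, 1 member was called up and 0 down, against 21% and 24.3% of tested genes. Snhg5 rose from 3.84 to 7.84 RPKM (1.01, SE 0.21, adjusted p = 0.0188 by glmTreat). This call was lost in 5 alternatives, among them those without naive replicate 1 or without 3 h replicate 1, with adjusted p from 0.0578 to 0.194. Snhg1 had a like value (0.90, SE 0.28, adjusted p = 0.101) with 3 h replicates of 38.1 and 19.2 RPKM, and was called without 3 h replicate 2 (1.30). Gas5 was lower in both 3 h libraries (-0.47, SE 0.20) and was not called. The F-test called Snhg1 and Snhg5 up and Gas5 down, against 34.7% up and 36.3% down of tested genes. By library, 3 members separated upward (Snhg1, Snhg5 and Snhg6) and 2 downward (Snhg3 and Gas5), against 39.7% and 42.9% of tested genes.

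From 10 to 33 h, 0 members were called up and 1 down, against 10.1% and 4.45% of tested genes. Snhg12 fell by 1.44 on the log2 scale (SE 0.23, adjusted p = 0.00363 by glmTreat), from 8.41 to 3.09 RPKM. Next were Snhg1 (-1.07, SE 0.26, adjusted p = 0.0813), Gas5 (-0.98, SE 0.19, adjusted p = 0.0575) and Snhg5 (-0.83, SE 0.19, adjusted p = 0.171). Gas5 passed in 7 alternatives and Snhg1 in 6, and leaving out either 3 h library or 10 h replicate 1 raised the count of calls to 3. Without 33 h replicate 1 it was 2. The F-test called 5 members down (Snhg1, Snhg4, Snhg5, Snhg12 and Gas5) and 0 up, against 22.2% and 23.2% of tested genes. By library, 6 members separated downward and 0 upward, against 38.8% and 35.2% of tested genes. The exceptions were Snhg6, with means of 49.1 and 48.2 RPKM (-0.03, SE 0.13), and Snhg3 (-0.22, SE 0.44).

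Between 33 h and expanded cells, glmTreat called 0 members, against 6.94% of tested genes up and 3.66% down. The F-test called Snhg1 (0.72, SE 0.26), Snhg6 (0.62, SE 0.13) and Gas5 (0.63, SE 0.19) up and 0 down, against 18.5% and 21.2% of tested genes. DESeq2's Wald test called 0. Both expanded libraries lay above both 33 h libraries for 6 members and below them for 0, against 34.6% and 38.9% of tested genes. Snhg4 (-0.14, SE 0.21) and Snhg3 (0.15, SE 0.46) overlapped.

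From naive cells to plasmablasts, 1 member was called up and 3 down, against 26.6% and 23.4% of tested genes. Snhg6 rose from 15.9 to 36.4 RPKM (1.19, SE 0.15, adjusted p = 0.000395 by glmTreat). Snhg12 fell from 7.92 to 1.33 RPKM (-2.59, SE 0.28, adjusted p = 9.45e-06). Gas5 fell from 34.5 to 11.9 RPKM (-1.53, SE 0.20, adjusted p = 0.000234) and Snhg4 from 3.86 to 1.33 RPKM (-1.51, SE 0.26, adjusted p = 0.00118). These 4 calls held in all alternatives. Snhg5 (-0.79, SE 0.23) and Snhg8 (-0.64, SE 0.17) were not called, but the F-test called them down as well, which made 5 down and 1 up against 35.9% and 38.2% of tested genes. By library, 7 members separated downward and 1 upward, against 43.6% and 45.7% of tested genes.

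Rows for snoRNAs themselves held few counts in these polyA libraries. Of 11 rows inside 7 hosts, 7 reached 10 counts in a library, and the highest was 32. Snord47 had 11 and 3 counts in naive cells, then 5 and 12 (3 h), 32 and 17 (10 h) and 6 and 3 (33 h) after activation, with 3 and 2 (expanded) against 1 and 1 (plasmablast) on day 4. Snora16a had 4 and 16 counts at 3 h and 22 and 2 at 10 h, and Snord22, inside Snhg1, 15 and 11 counts there with 0 in both plasmablast libraries. Snora73a was highest in expanded cells with 18 and 20 counts. Relative to the total counts of a stage, 6 rows were highest at 10 h, 2 in expanded cells and 1 (Snora16a) at 3 h, and 2 (Snora73b and Snora24) had 0 counts in every library. Without scaling to depth, 7 were highest at 10 h, Snora16a among them through replicate 1. Whether such reads came from snoRNAs, from unspliced host RNA or from retained introns was not tested. Snora24 lies inside the counted exon of Snhg8, and how reads over both were assigned is not given.

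**Figure D3:**
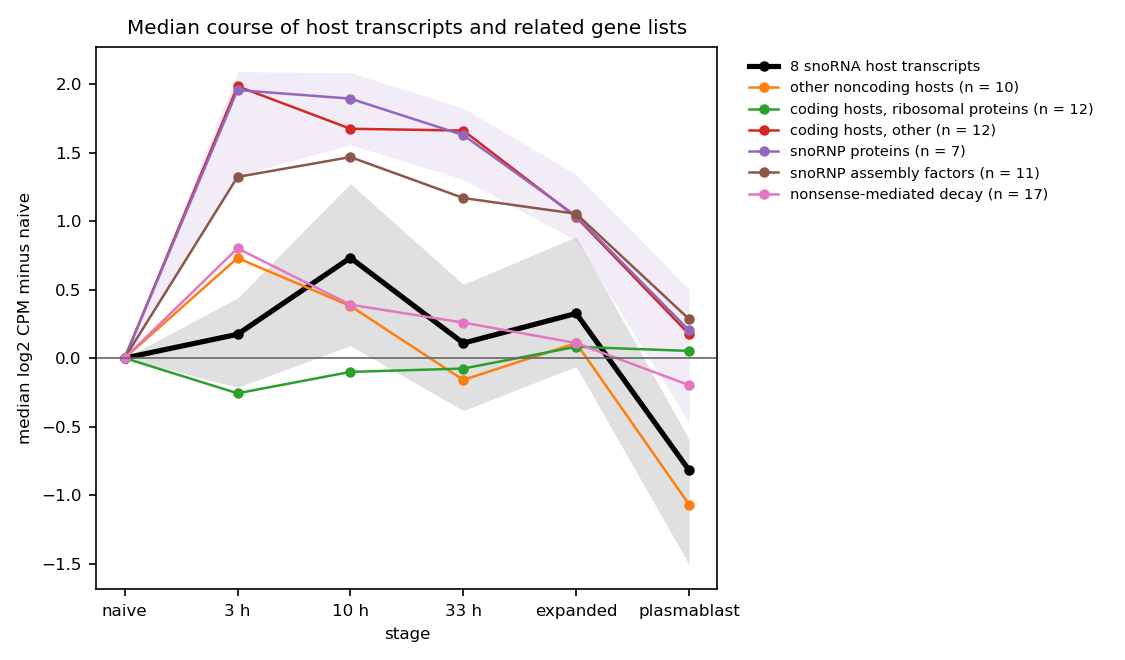
Median over the genes of a list of the mean log2 CPM of a stage minus that of naive cells, for the 8 host transcripts (black) and 6 related lists, with shading for the middle quartiles of the members and of the snoRNP proteins. The members went from 0.17 at 3 h to 0.73 at 10 h and -0.82 in plasmablasts, while the snoRNP proteins were at 1.96 and 1.89 at 3 and 10 h and at 0.20 in plasmablasts. The rise of the members from 3 to 10 h and their fall into plasmablasts were used to choose them, unlike the other lists.

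Related genes were counted from lists chosen by name. snoRNP proteins bind snoRNAs in the finished particle, and 7 of 8 could be tested, since Dkc1 lies on the X chromosome and was removed. From naive cells to 33 h, 6 of the 7 were called up and 0 down, with a median of 1.63, against 22.3% of tested genes up and 20.8% down. Nop58, a core protein of box C/D particles, rose from 59.5 to 255 RPKM (2.10, SE 0.09, adjusted p = 5.6e-09 by glmTreat), Nhp2, of box H/ACA particles, by 2.00 (SE 0.12), and Gar1, of the same particles, by 1.67 (SE 0.14). At 3 h 6 of the 7 were called up and 0 down, with a median of 1.96, against 21% of tested genes up and 24.3% down. Of 11 assembly factors, 8 were called up at 3 h and 9 at 33 h, with 0 down at either time, beside the same shares of tested genes. The leading ones at 33 h were Nolc1 (1.93, SE 0.10), the H/ACA assembly factor Naf1 (1.75, SE 0.10) and Znhit3 (1.64, SE 0.13). From expanded cells to plasmablasts, 6 snoRNP proteins and 5 assembly factors were called down and 0 up, against 12.2% of tested genes down and 13.9% up. Over the alternatives these counts ran from 2 to 7 and from 1 to 8. From 3 to 10 h, 1 snoRNP protein was called up and 0 down, and 1 assembly factor up and 3 down, against 17.4% of tested genes up and 13.4% down.

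Protein-coding hosts of snoRNAs fell into 2 groups. Of 12 that encode ribosomal proteins or Rack1, glmTreat called 0 in any of the 7 comparisons, with medians between -0.26 and 0.16. The F-test, which has no fold threshold, called 1 of these up and 7 down at 3 h and 0 up and 4 down at 33 h against naive cells, beside the 34.7% and 36.3%, and 35.8% and 35.1%, of tested genes. From 3 to 10 h it called 3 up and 2 down, against 32.1% and 30.2% of tested genes. From expanded cells to plasmablasts it called 5 up and 4 down, against 27.2% and 29.7%. Of 12 other coding hosts, glmTreat called 9 up and 0 down at 3 h, with a median of 1.99, and 9 up and 1 down at 33 h, against 21% and 24.3%, and 22.3% and 20.8%, of tested genes. Those with the largest rise were Nop58, which is also a snoRNP protein, the chaperone Hspa8 (1.88, SE 0.11) and the mitochondrial chaperone Hspa9 (1.80, SE 0.09), and the translation factor Eif4a2 fell (-0.96, SE 0.13). Of the 12, 6 were called down and 0 up in plasmablasts against expanded cells (12.2% and 13.9% of tested genes), with 3 to 10 down over the alternatives.

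Other noncoding hosts varied among themselves. Of 14 listed, 10 could be tested, and from naive cells to 33 h 2 were called up and 3 down, against 22.3% and 20.8% of all tested genes. Snhg15 had 2.54 and 1.96 RPKM in naive cells, then 46.8 and 32.7 (3 h), 42.7 and 50.3 (10 h) and 13.5 and 12.7 (33 h) after activation, with 18.7 and 14.9 (expanded) against 6.44 and 6.20 (plasmablast) on day 4. It was up at 33 h by 2.52 (SE 0.23), Dancr rose by 1.45 (SE 0.35), and Zfas1 (-1.99, SE 0.30), Snhg18 (-1.32, SE 0.35) and Epb41l4aos (-1.19, SE 0.24) fell. Dancr (mean 0.65 to 1.78 RPKM) and Snhg18 (0.87 to 0.34 RPKM) were at low levels. Zfas1 had 42.6 and 33.6 RPKM in naive cells and 4.76 and 3.3 in plasmablasts. From expanded cells to plasmablasts 6 of the 10 were called down and 0 up (median -1.55), against 12.2% and 13.9% of tested genes, with 4 to 8 down over the alternatives. From 3 to 10 h 0 were called in either direction (median -0.19), against 17.4% up and 13.4% down. The 8 members were chosen for a rise over this transition and a fall into plasmablasts. That choice fixes part of any difference between them and these hosts.

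Nonsense-mediated decay removes many host exons, and of 17 tested factors 6 were called up and 0 down at 33 h, against 22.3% and 20.8% of tested genes. Magohb (1.75, SE 0.14), Rbm8a (1.18, SE 0.10) and Rnps1 (1.13, SE 0.11), all proteins of or near the exon junction complex, led them. At 3 h 10 were up and 3 down, against 21% and 24.3% of tested genes. From expanded cells to plasmablasts 1 was up and 2 down, against 13.9% and 12.2%, and up to 9 were down over the alternatives. Among 10 tested long noncoding RNAs that are not snoRNA hosts, 2 were called up and 5 down at 33 h, against the same 22.3% and 20.8%. Malat1 (-2.60, SE 0.36), Neat1 (-2.29, SE 0.24) and Dleu2 (-2.04, SE 0.17) fell, and Morrbid (1.99, SE 0.66) and Pvt1 (1.42, SE 0.20) rose. Both rises were at low levels, from a mean of 0.024 to 0.099 RPKM for Morrbid and 0.36 to 0.97 RPKM for Pvt1. In plasmablasts Malat1 was at 10.1 and 12.9 RPKM, against 11 and 11.1 in expanded cells.

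Protein-coding genes within 5 kb of a member were compared with it. Slc3a2, the heavy chain of amino acid transporters, lies 117 bases from Snhg1 on the other strand. It had 75.9 and 82.9 RPKM in expanded cells and 495 and 552 in plasmablasts (log2 fold change 2.72, SE 0.13, adjusted p = 1.72e-08 by glmTreat), while Snhg1 went the opposite way (-1.37). Among the stages before plasmablasts both had their highest mean at 10 h, when Slc3a2 was at 87.7 and 89.5 RPKM. Trnau1ap, which acts in selenocysteine incorporation and lies 738 bases from Snhg12 on the other strand, rose from naive cells to 3 h (0.90, SE 0.09, adjusted p = 0.00125) and fell from 10 to 33 h (-0.87, SE 0.09, adjusted p = 0.00656). Snhg12 was also called down from 10 to 33 h. From naive cells to 33 h the signs differed, with Snhg12 called down (-1.36, SE 0.24) and Trnau1ap not called (0.54, SE 0.09). Zbtb37, which overlaps Gas5 by 264 bases, was called down from naive cells to plasmablasts (-1.93, SE 0.17). Matr3, near Snhg4, was called down over the same comparison (-0.78, SE 0.08), as was Phactr4, near Snhg3 (-2.21, SE 0.13). Mcmdc2, which overlaps Snhg6 by 1582 bases, was at most 0.0588 RPKM in any library, and Prss12, near Snhg8, was called down from naive cells to 33 h (-3.92, SE 0.31).

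**Figure D4:**
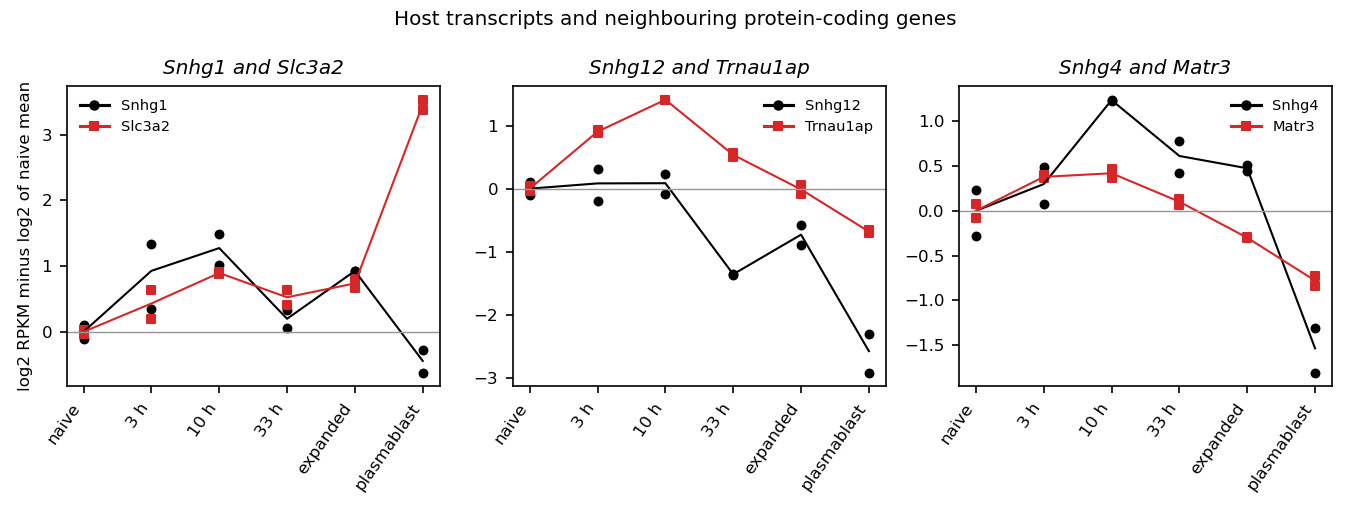
log2 RPKM of each library minus the log2 of the naive mean, for 3 host transcripts (black circles) and a neighbouring protein-coding gene (red squares), with lines through the stage means. In plasmablasts Slc3a2 rose to a mean of 524 RPKM while Snhg1 was at 11.1 RPKM.

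Whether the counting used strand, and how reads over 2 genes were assigned, is not given in the sources used here. Values of Gas5, Zbtb37 and Snhg6 over shared bases are therefore uncertain, as are those of Snhg8 and Snora24. GENCODE M21 also extends Rcc1 over 1673 bases of Snhg3 on the same strand, where the annotation behind the coordinates above does not.

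Courses were compared by Pearson's r of log2 CPM over the 12 libraries, which share stages. The members were chosen for a common rise and fall over 8 of these libraries, which raises r between them by construction, so these values are a description only. Among the 28 pairs of members r ran from -0.32 (Snhg6 with Snhg12) to 0.94 (Snhg8 with Gas5), with a median of 0.70. With the mean of the other 7 members, r was 0.12 for Snhg6, 0.45 for Snhg3 and between 0.67 and 0.90 for the rest. Of 8609 candidate genes outside the members, those most like the mean course were Rad54l2 and Lnpep (both 0.97), Adprh (0.95), Dffb, A630001G21Rik and Nudt16l1 (all 0.94), and Stk19, Snx6, Anapc7 and Ccdc12 (all 0.92). Rad54l2 shared the shape at a smaller size, with 5.91 and 6.67 RPKM at 10 h and 4.29 and 4.25 in plasmablasts. The gene most like each member was Uck1 for Snhg1 (0.95), Dph7 for Snhg3 (0.89), Snx6 for Snhg4 (0.97), Celf1 for Snhg5 (0.95), Mphosph6 for Snhg6 (0.99), Rad54l2 for Snhg8 (0.91), Ccdc32 for Snhg12 (0.98) and Pym1 for Gas5 (0.92). Mphosph6, a cofactor of the nuclear RNA exosome, had 9.05 and 10.2 RPKM in naive cells, 39.7 and 41.3 in expanded cells and 21.7 and 21.1 in plasmablasts.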

How the data were processed

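Per the labels and the study's methods, the authors prepared TruSeq libraries, sequenced them on a NextSeq instrument, aligned read pairs to mm10 with Rsubread and counted them per gene with featureCounts and the Entrez gene models it ships with. The deposited files hold raw counts and exon lengths, with no normalization or filter. Symbols and positions came from RefSeq tables, which matched all but 1904 identifiers. Those identifiers (1.41% to 2.08% of counts), mitochondrial, ribosomal RNA, X and Y genes and variable immunoglobulin segments were removed, as in the study, and filterByExpr kept 12750 of 23700 genes. R 4.3.3 was used with edgeR 4.0.16 (TMM, glmQLFit in legacy robust mode on all 12 libraries in a one-way layout, glmTreat at a fold change of 1.5). RPKM and CPM were computed from the deposited counts with TMM-scaled library sizes, and log2 CPM with a prior count of 2. Each standard error (SE) is the absolute log2 fold change divided by the square root of the quasi-likelihood F statistic. The members, gene lists and tests were chosen with earlier results of these data known. Named list genes were up to 3 of the largest rises and falls among those called from naive cells to 33 h. Likeness was taken for genes whose mean log2 CPM reached 3. Neighbours were chosen by distance, also after their values were seen, and Snhg15, Zfas1 and Malat1 were given in further stages for their list. Alternatives were DESeq2 1.42.0 (size factors and Wald test), library size alone, the F-test, other filters and dispersions, other gene sets, a replicate block, the 4 libraries compared and leaving out each library. The steps were tested on simulated data. A few marker genes and a neighbouring gene are not reported here.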

Additional observations from a re-analysis of the deposited data

How the results depend on the processing

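Replicates are named as biological, but with 2 per stage the spread rests mostly on the fit across genes, and Snhg3 has too few counts for firm values. The count of called members from naive cells to 3 h (1) was 0 with library size alone, 0 with DESeq2's Wald test, 3 with the F-test, 2 with no filter, 0 with only the 4 libraries compared, and 0 to 2 leaving out each library. From 10 to 33 h (1) it was 3 with library size alone, 5 with the F-test, 3 with no filter, 2 with removed genes kept, 2 with the 4 libraries and 1 to 3 leaving out each library. With the F-test it was 3 from 33 h to expanded cells (0) and 5 from naive cells to 33 h (2). Apart from the F-test, Gas5 also passed from naive cells to 33 h in 11 alternatives. From naive cells to plasmablasts, Snhg5 and Snhg8 passed in 1 alternative each. The median member change from 3 to 10 h (0.47) was 0.81 with library size alone and 0.19 to 0.77 leaving out each library, and that from expanded cells to plasmablasts (-1.34) was -1.67 with library size alone. That scaling alone moved the median of all genes to 0.35 and -0.38 in these comparisons. It also changed the calls over all genes from 2221 up and 1711 down to 3432 up and 1004 down from 3 to 10 h, and from 1776 up and 1553 down to 1181 up and 2953 down from expanded cells to plasmablasts. From naive cells, 2674 up and 3100 down became 2091 up and 3716 down at 3 h (median of all genes -0.24), and 3386 up and 2985 down became 2730 up and 3884 down in plasmablasts (median -0.26). Changes of sign in the tested comparisons, all in values not called, were as follows. From naive cells to 3 h, Snhg12 (0.06) was -0.15 with library size alone, -0.018 with at least 10 counts in every library, -0.034 without naive replicate 2 and -0.19 to 0.28 leaving out each library, and Snhg8 (-0.11) was -0.35 to 0.086 leaving out each. From 10 to 33 h, Snhg6 (-0.03) was 0.0015 with DESeq2's size factors, 0.0013 with its Wald test, 0.00025 with no filter and -0.24 to 0.16 leaving out each library, and Snhg3 (-0.22) was -0.81 to 0.34. From 33 h to expanded cells, Snhg3 (0.15) was -0.41 to 0.75 and Snhg4 (-0.14) was -0.31 to 0.051. From naive cells to 33 h, Snhg3 (0.01) was -0.046 with DESeq2's size factors, -0.044 with the newer quasi-likelihood method, -0.0081 with the replicate block and -0.58 to 0.57 leaving out each library. Of the other single-gene values, 1219 kept their side of the threshold or, where untested, moved by no more than the spread. The threshold was newly passed by 28 and lost by 5 (all Snhg5 from naive cells to 3 h). The remaining 8, untested, moved by more than the spread. The 1219 include changes of sign from 3 to 10 h, among them those of Snhg1, Snhg8 and Snhg12 without 3 h replicate 2. The cause was not tested. For the lists, alternatives were added after seeing the data, and the count of called genes from naive cells to 33 h (41) ran from 34 to 56. The replicate numbers share only a number, with correlations of replicate differences between stages from -0.14 to 0.084, and the replicate block changed no call of a member.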
